A study of Mus musculus with 24 samples.

Results

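Organoids of irradiated mouse salivary glands were compared between the second and the first passage of the culture, at 90 days after irradiation of the gland. The comparison holds 6 of the 24 libraries of the series, 3 of passage 1 and 3 of passage 2, chosen by the day, passage and treatment in their labels. It asks which genes were lost or gained when organoids grown from irradiated glands were passaged once more. All 24 libraries come from C57BL/6 mice and from cells that the labels call salivary gland stem/progenitor cells, grown in Matrigel with EGF, FGF2, insulin, dexamethasone and the ROCK inhibitor Y-27632. The other groups used here are organoids of sham-irradiated glands at day 90 and of irradiated glands at day 14, each with 3 libraries of passage 1 and 3 of passage 2. Irradiation (IR) was given to the gland, and the organoids were grown afterwards. The sources used here give neither the radiation dose nor the age of the mice. Passage 2 was grown from passage 1. Whether the replicates of a group were separate mice or cultures is not in the labels, so each p-value reflects the variation among libraries within the groups, which could be technical.

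A salivary gland makes saliva in acinar cells and carries it through ducts lined by luminal and basal cells. Luminal duct cells carry the simple keratins Krt7, Krt8, Krt18 and Krt19, and basal cells carry Krt5, Krt14 and the transcription factor Trp63. In culture, progenitor cells are taken apart and replated at each passage, and the growth of the next generation of organoids is used in this field as a measure of self-renewal. The series title names Bmp4, a secreted ligand of the BMP pathway, which acts through SMAD factors and switches on the Id genes.

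Counts on genes ranged from 1491200 to 3068029 in the 6 libraries, and 13697 to 15284 genes had at least 1 count. The libraries were 3' tag libraries, in which a gene's count does not grow with its length. Levels are given in CPM, the counts of a gene scaled to a common library total with TMM factors, which allow for differences in composition. Gm42418, a predicted gene that overlaps a ribosomal RNA repeat, took 29.0%, 26.9% and 27.0% of the counts in passage 1 and 13.5%, 24.3% and 23% in passage 2. Passage 2 replicate 1 stood apart from the other libraries of its group. Its chi-square per degree of freedom against them was 26.7 and 19.5, while theirs against each other was 3.69. In passage 1, replicate 3 stood apart by less, at 9.66 and 5.18 against the other libraries of its group, with 2.73 between those. Some values are also given without passage 2 replicate 1. All 10 epithelial markers had counts in each of the 6 libraries, with a summed level of 5202 to 7265 CPM in passage 1 and 4059 to 7648 CPM in passage 2. Of the 11 mesenchymal markers 7 or 8 had no count in a library, Col1a2, Col3a1, Pdgfrb, Twist1 and Thy1 among them. Their sum was 20.9 to 100 CPM in passage 1 and 36.8 to 126.5 CPM in passage 2, most of it Vim. Prrx1 was at 6.70, 5.95 and 5.57 CPM and then at 20.2, 11.7 and 8.92 CPM. The 8 neural and Schwann markers summed to 81.9 to 97.4 CPM and then to 88.2 to 102.6 CPM, mostly Mbp and Ncam1. The 8 endothelial markers summed to 0.696 to 2.06 CPM. The 11 immune markers summed to 4.12 to 37.6 CPM in passage 1 and to 0.406 to 2.98 CPM in passage 2. Most of the passage 1 sum was Lyz2, which salivary glands also make, while in passage 2 replicate 1, the highest of its group, Lyz2 had no count and Cd68 gave 2.08 CPM. In bulk libraries such as these, fewer cells of a type and less RNA per cell cannot be told apart.

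No single gene was called between the passages by edgeR. Of 10563 genes tested, 0 (0%) had an adjusted p under 0.05 in edgeR's quasi-likelihood test, 14 (0.133%) had one under 0.1, and 1066 (10.1%) had an unadjusted p under 0.05, 573 of them higher (5.42%) and 493 lower (4.67%). DESeq2 called 38 genes on the same counts. Without passage 2 replicate 1, edgeR called 33 of 10822 genes (0.305%), 16 higher and 17 lower in passage 2. With any other library of this comparison left out it called 0. The fold changes were balanced, with 5247 genes (49.7%) above 0 and 5310 (50.3%) below 0. The genes below are therefore described by their values in each library and by whether the 3 libraries of one passage lay wholly above or below the 3 of the other. That held for 1567 genes (14.8% of those tested), 836 of them higher in passage 2 (7.91%) and 731 lower (6.92%), and these shares are the background for each gene group.

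The simple keratins of luminal duct cells stood lower in passage 2. Krt8, which pairs with Krt18 in the filaments of simple epithelia, was at 230, 253 and 290 CPM in passage 1 and at 113, 132 and 167 CPM in passage 2. Its log2 fold change was −0.91 (SE 0.20, adjusted p = 0.0995), and the highest passage 2 library was below the lowest passage 1 library. Krt18 was at 904, 827 and 948 CPM and then at 382, 546 and 676 CPM (−0.74, SE 0.22, adjusted p = 0.239). Krt7, the other simple keratin of ducts, was at 574, 502 and 676 CPM and then at 335, 283 and 425 CPM (−0.75, SE 0.28, adjusted p = 0.357). The groups did not overlap for any of these 3 keratins. None was called by edgeR, and DESeq2 called Krt8 (−0.91, adjusted p = 0.00819). Krt19 was near the limit of detection, at 2.64 to 6.70 CPM in passage 1 and 1.67 to 2.84 CPM in passage 2. Of the 33 tested genes of luminal duct cells and ionocytes, 5 lay wholly lower and 1, Ltf, wholly higher. The shares of all genes were 6.92% and 7.91%. The median log2 fold change of the 33 was −0.30 against 0 for all genes. Without passage 2 replicate 1 that median was −0.23.

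Salivary secretory products were the genes nearest to a complete loss. Klk1, a kallikrein protease secreted by duct cells, was at 38.2, 54.2 and 16 CPM in passage 1 and at 1.19, 0 and 1.22 CPM in passage 2, with a fold change of −5.33 on the log2 scale (SE 1.10, adjusted p = 0.0865). Klk1 has near-identical neighbours in the mouse kallikrein cluster, so its counts are uncertain. Mucl2, a mucin-like product, was at 11.3, 6.61 and 3.48 CPM in passage 1 and had no count in any passage 2 library, at least 20.7-fold lower when passage 2 is set at a floor of 3 counts summed over its libraries. Car6, the carbonic anhydrase secreted into saliva, was at 6.19, 2.64 and 3.48 CPM in passage 1 and also had no count in passage 2, at least 11.8-fold lower. These floors cover counting error only. Dcpp3, of the demilune cell and parotid protein family with its near-identical copies, was at 2.06, 1.32 and 1.39 CPM and then at 0. Lyz2, a lysozyme of acinar cells and of macrophages, was at 2.58, 13.2 and 29.9 CPM and then at 0, 1.25 and 0.406 CPM (−4.75, SE 1.16, adjusted p = 0.151). It is also 1 of the immune markers, whose summed level was lower in passage 2, and the part of immune cells in its level was not tested. Each of these 5 genes lay wholly lower in passage 2. None was called by edgeR as fitted, while DESeq2 called Klk1 (adjusted p = 0.00112), Mucl2 (adjusted p = 0.00158) and Car6 (adjusted p = 0.00757).

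Not all secretory genes took that direction. Pip, the prolactin-inducible protein of exocrine glands, was at 115, 50.9 and 10.4 CPM in passage 1 and at 232, 123 and 132 CPM in passage 2 (1.44, SE 0.67, adjusted p = 0.480). Tcn2, a vitamin B12 carrier, and Prlr, the prolactin receptor, also lay wholly higher, with log2 fold changes of 0.70 (SE 0.29) and 0.76 (SE 0.34). Aqp5, the water channel of acinar cells, overlapped between the passages, at 65, 31.1 and 17.4 CPM and then at 34.5, 25.5 and 31.2 CPM (−0.33, SE 0.42, adjusted p = 0.823). Of the 21 tested acinar and secretory genes, 4 lay wholly lower and 3 wholly higher, and the median log2 fold change was −0.31, which was 0 when passage 1 replicate 1 was left out.

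**Figure D1:**
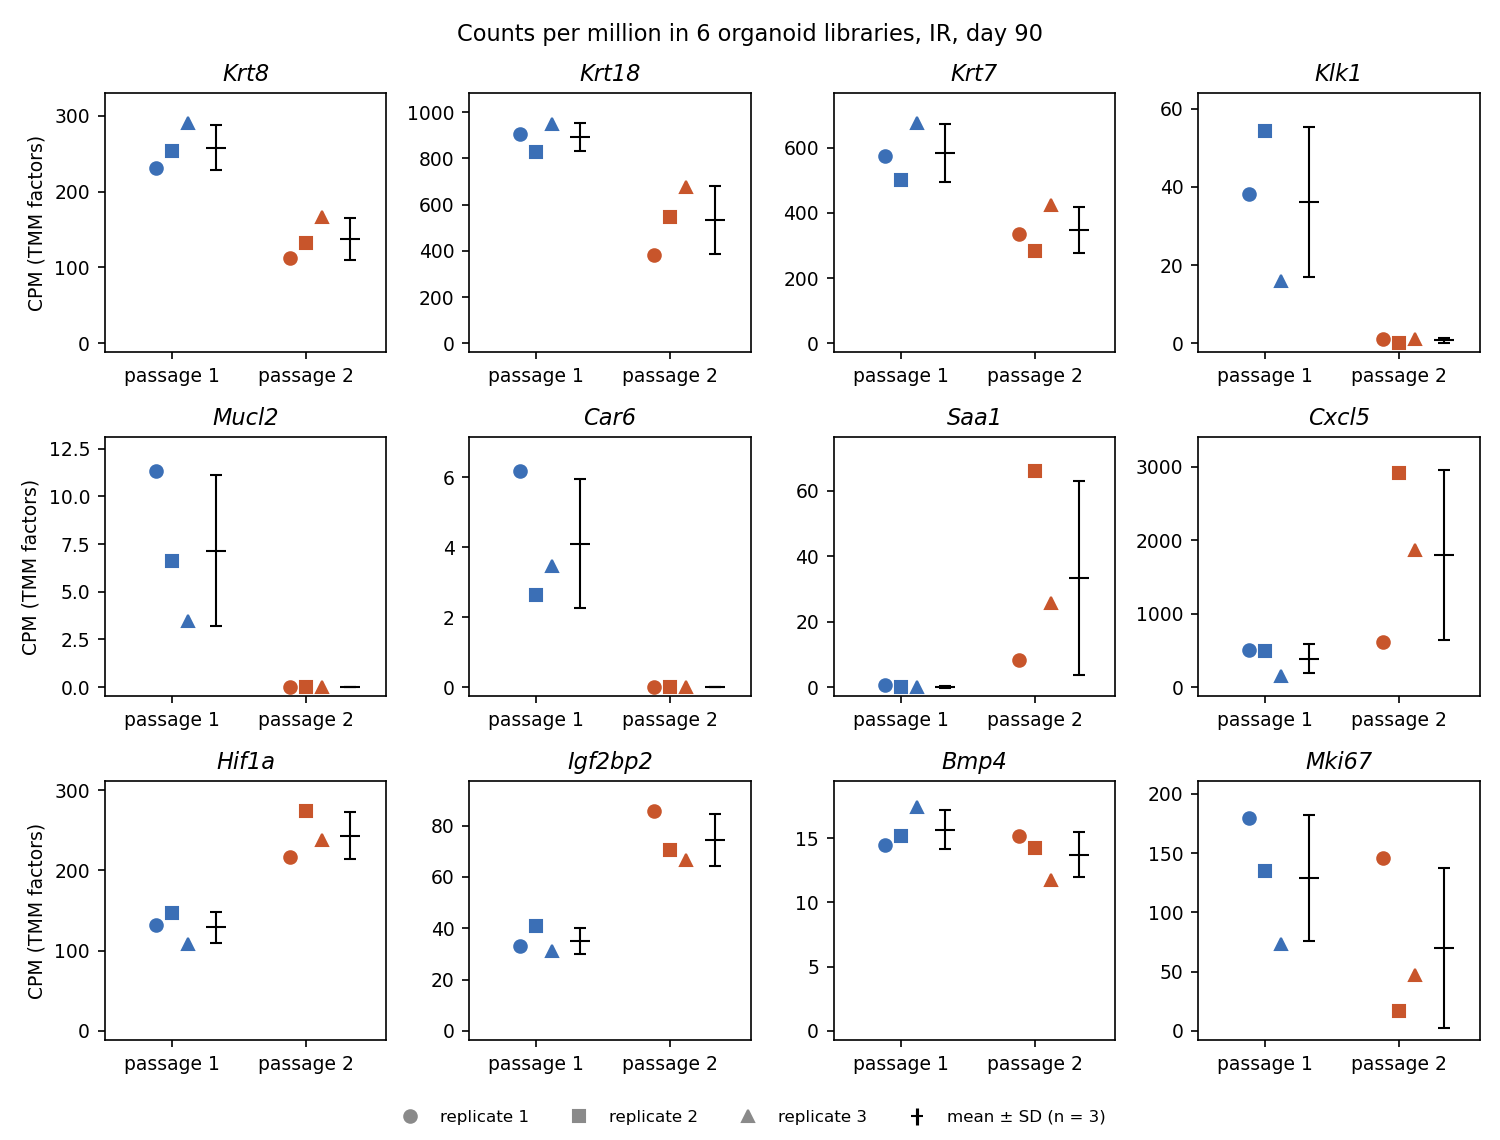
Level in CPM (vertical axis, from 0) of 12 genes in the 3 passage 1 (blue) and 3 passage 2 (orange) libraries of organoids from irradiated glands at day 90; marker shape gives the replicate and the black bar the mean ± SD over 3 libraries. Krt8, Krt18, Krt7, Klk1, Mucl2 and Car6 lie wholly lower in passage 2, Saa1, Cxcl5, Hif1a and Igf2bp2 wholly higher, and Bmp4 and Mki67 overlap.

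Further genes with the smallest p among those lower in passage 2 were not markers of a duct or acinar cell. Zdhhc2, a palmitoyltransferase, was at 52.6, 53.5 and 65.4 CPM in passage 1 and at 29.5, 24.7 and 33.7 CPM in passage 2 (−0.96, SE 0.20, adjusted p = 0.0865). Homer2, a scaffold protein that binds calcium-signalling receptors, was at 95.9, 93.2 and 75.8 CPM and then at 52.7, 49.7 and 44.6 CPM (−0.85, SE 0.18, adjusted p = 0.0995). For both the ranges of the passages did not meet. Mrps5, a protein of the mitochondrial ribosome, was at 46.4, 52.2 and 52.9 CPM and then at 26.5, 33.4 and 33.3 CPM (−0.70, SE 0.15, adjusted p = 0.0929).

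Acute-phase genes led those higher in passage 2. Saa1, a serum amyloid A protein of the acute-phase response, was at 0.516, 0 and 0 CPM in passage 1, 1 read in all, and at 8.33, 66 and 25.6 CPM in passage 2. That is a ratio of 148 with an exact 95% counting interval of 26.4 to 5875, and a fitted log2 fold change of 6.98 (SE 1.21, adjusted p = 0.0503). Its near-identical neighbour Saa2 had no count in passage 1 and 1.19, 14.2 and 7.30 CPM in passage 2, at least 11.1-fold higher, and the pair may share reads. Cxcl5, a chemokine that attracts neutrophils, was at 510, 498 and 157 CPM and then at 609, 2915 and 1873 CPM (2.21, SE 0.46, adjusted p = 0.0865). Passage 2 replicate 1 was the lowest of its group for Saa1, Saa2 and Cxcl5. Without that library Saa1 (7.46, adjusted p = 0.00579) and Cxcl5 (2.63, adjusted p = 0.00598) were called by edgeR. With any other library of the comparison left out neither was called, and the adjusted p of Saa1 was 0.127 to 0.258.

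Further secreted defence proteins had the same direction. Chil1, a chitinase-like secreted protein, was at 2.06, 2.64 and 0.696 CPM in passage 1 and at 13.4, 29.7 and 23.9 CPM in passage 2 (3.55, SE 0.83, adjusted p = 0.15). Saa3, the inducible amyloid of epithelia and macrophages, overlapped because of passage 2 replicate 1, at 6.70, 1.32 and 0.696 CPM and then at 5.66, 95.3 and 39.3 CPM. Lcn2, an iron-scavenging lipocalin, overlapped for the same library, at 518, 330 and 158 CPM and then at 379, 1296 and 1117 CPM. Without it Saa3 (4.38, adjusted p = 0.00731) and Lcn2 (1.85, adjusted p = 0.0349) were called. Hp, the haemoglobin-binding haptoglobin, was at 952, 426 and 138 CPM and then at 1237, 1620 and 1713 CPM (1.59, SE 0.64, adjusted p = 0.396). Ltf, the iron-binding lactoferrin of secretions, was at 49, 43.6 and 24.4 CPM and then at 58.9, 158 and 99 CPM (1.41, SE 0.40, adjusted p = 0.210). Of the 39 tested genes for chemokines, acute phase and NF-kappaB feedback, 9 lay wholly higher and 2 wholly lower. The shares of all genes were 7.91% and 6.92%. The list had a median log2 fold change of 0.43. The 2 lower were the alarm cytokines Il33, at 11.3, 8.59 and 6.96 CPM and then at 4.76, 0 and 0.406 CPM, and Tslp, whose passage 1 range of 20.1 to 120 CPM was set by replicate 3.

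Outside that list, Hif1a, the oxygen-regulated transcription factor, was at 132, 147 and 108 CPM in passage 1 and at 217, 274 and 238 CPM in passage 2 (0.91, SE 0.17, adjusted p = 0.0583). The 36 tested genes of glycolysis and hypoxia did not follow it, with 2 wholly higher, 3 wholly lower and a median of 0.11. Igf2bp2, an RNA-binding protein of growth-factor messages, was at 33, 41 and 31.3 CPM and then at 85.7, 70.6 and 66.5 CPM (1.08, SE 0.20, adjusted p = 0.0503). Depp1, a target of FOXO factors, was at 1.03, 0.661 and 1.39 CPM and then at 5.06, 10.9 and 7.30 CPM (2.83, SE 0.51, adjusted p = 0.0503). These 3 genes lay wholly higher, and each was called without passage 2 replicate 1. Zfp217, a zinc-finger repressor, was at 44.3, 48.9 and 45.2 CPM and then at 76.5, 71 and 81.9 CPM (0.73, SE 0.15, adjusted p = 0.0865). Hist1h1c, a linker histone, was at 421, 391 and 351 CPM and then at 625, 1049 and 783 CPM (1.08, SE 0.22, adjusted p = 0.0865), also without overlap. Fbxo32, a ubiquitin ligase subunit also induced by FOXO factors, went from 104, 78.6 and 61.9 CPM to 223, 240 and 264 CPM (1.57, SE 0.32, adjusted p = 0.0865).

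The interferon response was the gene group that stood out most by its counts. Cells that sense viral or self nucleic acids secrete interferon, which acts on promoters that carry an interferon-stimulated response element (ISRE). All 56 tested members of the list had a log2 fold change above 0, 45 lay wholly higher in passage 2 and 0 wholly lower, against 7.91% and 6.92% of all genes. Their median log2 fold change was 2.40, or 2.28 with the 3 members that had no count in passage 1 set at their bound. No member was called, and the smallest adjusted p was 0.281. The filter on low counts used all 8 groups, so a member could pass it through a group where it was high. With edgeR and that filter on the compared groups alone, 44 of these members were tested, their median was 2.16 and 3 were called. With no filter on low counts 43 were called. Passage 2 replicate 1 was the lowest of its group for 51 of the 56.

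The promoters of 3 of these genes are shown because their passage 1 and passage 2 values did not meet and because they hold the element. Sequences are the 250 bases before the gene's start, 5′ to 3′ on the gene's strand, from RefSeq on build GRCm38.p6, while the counts were made on GRCm39. Capitals mark each match to GAAA, any 2 bases and GAAA again or, for the other strand, TTTC, any 2 bases and TTTC, and matches that overlap run together. Bst2 lies at chr8:71537473-71537722 on the minus strand with 2 matches, Stat2 at chr10:128270248-128270497 on the plus strand with 1, and Isg15 at chr4:156200819-156201068 on the minus strand with 3.
Bst2: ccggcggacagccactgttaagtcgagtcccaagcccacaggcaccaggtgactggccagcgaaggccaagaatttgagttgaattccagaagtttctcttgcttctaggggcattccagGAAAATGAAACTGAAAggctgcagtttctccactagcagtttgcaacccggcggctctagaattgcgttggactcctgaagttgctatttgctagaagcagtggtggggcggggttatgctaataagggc
Stat2: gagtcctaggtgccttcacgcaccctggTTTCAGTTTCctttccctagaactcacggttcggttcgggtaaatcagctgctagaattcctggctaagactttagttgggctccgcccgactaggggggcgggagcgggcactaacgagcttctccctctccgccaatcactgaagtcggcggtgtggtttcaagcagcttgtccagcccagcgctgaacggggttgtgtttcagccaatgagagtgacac
Isg15: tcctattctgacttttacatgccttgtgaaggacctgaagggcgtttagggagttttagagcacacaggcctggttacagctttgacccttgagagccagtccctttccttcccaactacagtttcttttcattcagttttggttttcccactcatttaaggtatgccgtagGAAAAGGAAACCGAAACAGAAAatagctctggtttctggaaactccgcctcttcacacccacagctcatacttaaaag
Of the 40 list members with a promoter in the table, 17 (42.5%) held at least 1 match on either strand. Of all 27025 promoters of this length 936 (3.46%) held one, and of the 8263 tested genes with an entry 251 (3.04%) did. The list was made of interferon-response genes, so a high share is built into that choice and is not a result of these libraries. A match describes letters in this window and does not show a bound site.

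Bst2, or tetherin, which holds budding virus at the cell surface, was at 29.4, 31.1 and 6.96 CPM in passage 1 and at 74.1, 168 and 146 CPM in passage 2 (2.50, SE 0.78, adjusted p = 0.281). Stat2, a signal carrier of the pathway itself, was at 12.9, 13.2 and 4.87 CPM and then at 19.9, 63.9 and 48.7 CPM (2.05, SE 0.72, adjusted p = 0.337). Isg15, a ubiquitin-like modifier, was at 6.19, 10.6 and 2.78 CPM and then at 35.1, 112 and 77.5 CPM (3.50, SE 1.31, adjusted p = 0.360). In all 3 genes passage 2 replicate 1 was the lowest library of its group and still above passage 1. Irf7, an inducible factor of the response, stood at 2.58, 2.64 and 2.78 CPM and then at 12.8, 36.8 and 32 CPM. Eif2ak2, the double-stranded RNA sensor kinase PKR, was more even, at 20.1, 16.5 and 13.2 CPM and then at 44.6, 47.2 and 45.8 CPM. Oas3, 1 of the 3 members with no passage 1 count and an antiviral synthetase activated by double-stranded RNA, had 1.49, 6.27 and 4.87 CPM in passage 2, at least 6.35-fold higher.

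The summed view by library gave the same order. The mean log2(CPM + 1) of the interferon genes was 2.67, 2.52 and 2.39 in passage 1 and 3.62, 4.92 and 4.63 in passage 2. In the other 18 libraries of the series it ran from 2.29 to 6.02. It spread from 2.63 to 5.70 within passage 2 of IR organoids at day 14 and from 2.55 to 4.97 within passage 1 of sham organoids at day 90. Low libraries were found among sham organoids too, so the low level of the 3 passage 1 libraries was within the range of the series. The list's median log2 fold change over the passage was 1.74 in sham organoids at day 90 and 2.37 in IR organoids at day 14, with 0 members called in either. With the Gm42418 share as a covariate, the median in IR organoids at day 90 was 1.71. That share was lowest in passage 2 replicate 1 and lower in all 3 passage 2 libraries than in passage 1. The covariate fit therefore does not by itself separate its part from that of the passage. The immune markers had fewer counts in passage 2 than in passage 1, and their part in the interferon difference was not tested.

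Antigen-presentation genes, many of which respond to interferon, stood higher by less. Of the 20 tested genes of MHC class I and the immunoproteasome, 10 lay wholly higher and 0 wholly lower, with a median of 0.71, or 0.39 with the Gm42418 share as a covariate. Tapbp, which loads peptide onto class I molecules, was at 109, 76 and 77.9 CPM in passage 1 and at 151, 148 and 150 CPM in passage 2. Psmb8, an immunoproteasome subunit, was at 4.64, 2.64 and 1.39 CPM and then at 9.52, 18 and 10.9 CPM. B2m, the light chain of class I molecules, was at 408, 325 and 285 CPM and then at 444, 807 and 820 CPM (1.02, SE 0.57, adjusted p = 0.573). Replicates 2 and 3 of passage 2 were its high libraries.

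**Figure D2:**
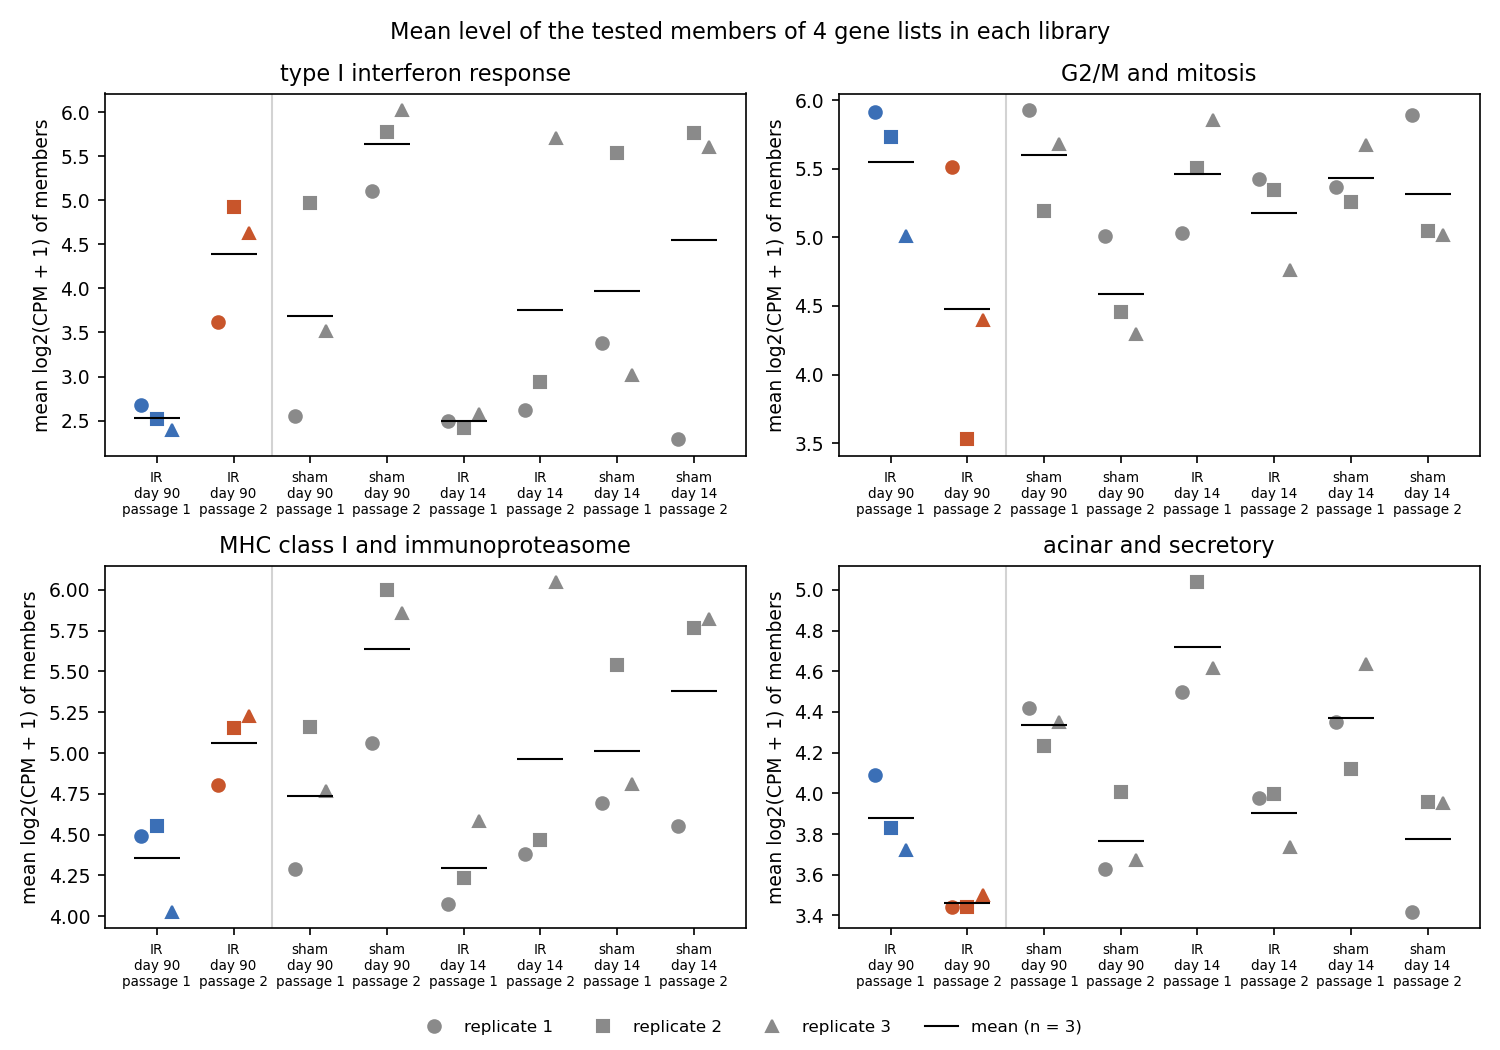
Mean log2(CPM + 1) (vertical axis) of the tested members of 4 gene lists in all 24 libraries, by treatment, day and passage (horizontal axis), with the IR day 90 libraries in colour and a black line at the mean of 3 libraries. Interferon and MHC class I genes are higher in the 3 passage 2 libraries than in the 3 passage 1 libraries, G2/M genes span 3.53 to 5.51 in passage 2, and acinar genes span 3.44 to 3.50 there.

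By mean level, proliferation genes lay below the passage 1 range in passage 2 replicates 2 and 3 and inside it in replicate 1. Mki67, a protein of dividing cells, was at 179, 135 and 73.1 CPM in passage 1 and at 146, 16.7 and 47 CPM in passage 2 (−0.87, SE 0.56, adjusted p = 0.615). Replicate 1 of passage 2 lay inside the range of passage 1 and the other 2 below it. Of 42 tested genes of G2/M and mitosis, 40 had a log2 fold change below 0, 8 lay wholly lower and 1 wholly higher, and the median was −0.98. Replicate 1 was the highest of the passage 2 libraries for 40 of the 42. Without it the median was −1.76 and 9 members were called lower. Without passage 2 replicate 2, the lowest library, the median was −0.56, no member was called and Mki67 was at −0.41. The mean log2(CPM + 1) of the list was 5.91, 5.73 and 5.01 and then 5.51, 3.53 and 4.39.

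Pbk, a mitotic kinase, was at 37.1, 26.4 and 23 CPM in passage 1 and at 13.7, 4.60 and 7.71 CPM in passage 2 (−1.70, SE 0.42, adjusted p = 0.151, and −2.22 with adjusted p = 0.0495 without replicate 1). Nusap1, a spindle protein, was at 74.8, 54.2 and 49.4 CPM and then at 38.7, 9.19 and 20.3 CPM, with adjusted p = 0.227, and 0.0395 without replicate 1. Both lay wholly lower in all 3 passage 2 libraries. Cdc20, an activator of the anaphase-promoting complex, and Cdk1, the kinase of mitotic entry, also lay wholly lower, by −1.76 (SE 0.56) and −1.01 (SE 0.39) on the log2 scale. The 1 member wholly higher was Pttg1, the securin that guards sister chromatids, at 30.4, 27.1 and 31.3 CPM and then at 47.3, 48 and 47.9 CPM (0.69, SE 0.21, adjusted p = 0.263). Genes of G1/S and replication had a median of −0.56 over 35 members, with 2 wholly lower. That median was −1.07 without passage 2 replicate 1 and −0.34 without passage 1 replicate 1.

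Some p53 target genes lay wholly higher in passage 2, none of them called. Cdkn1a, the p21 inhibitor of cyclin-dependent kinases, was at 285, 272 and 199 CPM in passage 1 and at 519, 334 and 346 CPM in passage 2 (0.67, SE 0.27, adjusted p = 0.384), and its log2 fold change without passage 2 replicate 1 was 0.44 (adjusted p = 0.595). Here replicate 1, the library with the most proliferation transcripts of passage 2, was the highest. Of 39 tested p53 targets, 6 lay wholly higher and 1 wholly lower, against 7.91% and 6.92% of all genes. The median of the list was 0.21. The death gene Pmaip1 (Noxa) was at 35.1, 32.4 and 16 CPM and then at 50.6, 79.4 and 64.1 CPM (1.20, SE 0.34, adjusted p = 0.210). Gdf15, a stress cytokine, was at 35.6, 33.7 and 48 CPM and then at 70.5, 76.5 and 98.1 CPM (1.07, SE 0.32, adjusted p = 0.261). Perp, a desmosome protein and p53 target, was the 1 wholly lower (−0.54, SE 0.19). Mdm2, the ubiquitin ligase of p53, overlapped (0.21, SE 0.23). Of 29 genes of senescence and its secretory programme, 2 lay wholly higher and 3 wholly lower, which is near the background shares. Cdkn2a was at 0.17 (SE 0.38).

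Of 42 tested genes of the unfolded protein and integrated stress responses, 8 lay wholly higher and 1, the chaperone cofactor Dnajb11, wholly lower. The shares of all genes were 7.91% and 6.92%. The list had a median of 0.22, and none of its members was called. The integrated stress response lets ATF4 be translated when protein synthesis is held back, and ATF4 then switches on genes of amino acid supply and of cell death. Atf4 itself was at 555, 455 and 280 CPM in passage 1 and at 963, 644 and 827 CPM in passage 2 (0.92, SE 0.29, adjusted p = 0.281). Ddit3 (CHOP) was at 11.9, 19.2 and 9.74 CPM and then at 38.1, 40.9 and 47.9 CPM (1.64, SE 0.42, adjusted p = 0.170). Mthfd2, a mitochondrial folate enzyme, was at 41.2, 41 and 30.6 CPM and then at 60.7, 94.8 and 98.1 CPM (1.16, SE 0.29, adjusted p = 0.153). All 3 lay wholly higher, as did Serp1, a stress-associated protein of the endoplasmic reticulum (0.56, SE 0.15), and Trib3, a pseudokinase (1.58, SE 0.51). Chac1, a glutathione-degrading enzyme, overlapped with all libraries (2.51, SE 0.67) and was called without passage 2 replicate 1 (3.01, adjusted p = 0.0246).

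Nuclear genes of oxidative phosphorylation stood lower by a small amount across many members. Of 75 tested, 64 had a log2 fold change below 0, and 20 lay wholly lower and 0 wholly higher, against 6.92% and 7.91% of all genes. The median was −0.21, and it ran from −0.29 without passage 2 replicate 1 to −0.10 with libraries scaled by total counts, where the median of all genes moved to 0.10 and 61.2% of them were above 0. Relative to that shift the list was again lower. Atp5e, a subunit of the ATP synthase, was at 101, 122 and 117 CPM in passage 1 and at 72.3, 71.9 and 67.7 CPM in passage 2 (−0.68, SE 0.16, adjusted p = 0.15). Ndufa10, a subunit of complex I, was at 121, 141 and 134 CPM and then at 96.4, 94.4 and 96.1 CPM (−0.46, SE 0.12, adjusted p = 0.190). The largest difference was that of Ndufa4, of the cytochrome oxidase complex, at 69.1, 74.7 and 111 CPM and then at 17.6, 48.5 and 36.5 CPM (−1.32, SE 0.39). The 7 mitochondrially encoded genes did not share the direction, with a median of 0.16 and 0 wholly apart, and mt-Co1 at −0.02 (SE 0.23). The list was at −0.24 in sham organoids at day 90 and at 0.06 in IR organoids at day 14.

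**Figure D3:**
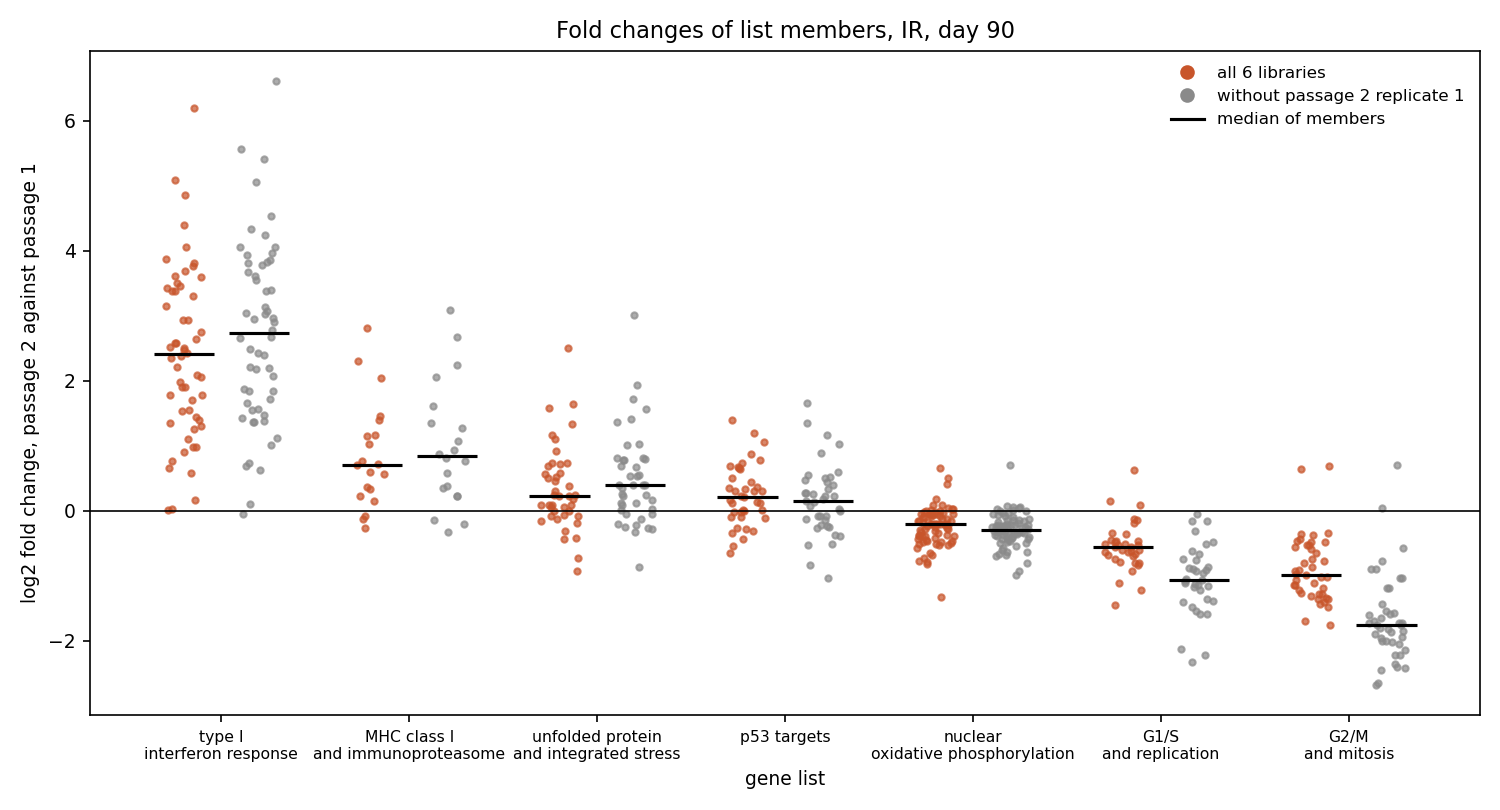
Log2 fold change of passage 2 against passage 1 (vertical axis) for each tested member of 7 gene lists (horizontal axis), with all 6 libraries (orange) and without passage 2 replicate 1 (grey); black lines are medians. Leaving that library out moves the G2/M median from −0.98 to −1.76 and the G1/S median from −0.56 to −1.07, while the oxidative phosphorylation median goes from −0.21 to −0.29.

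Bmp4, the ligand named in the title, was not called and overlapped between the passages. It was at 14.4, 15.2 and 17.4 CPM in passage 1 and at 15.2, 14.2 and 11.8 CPM in passage 2, a difference of −0.18 on the log2 scale (SE 0.39, adjusted p = 0.906), and the groups overlapped. Bmp4 fell in sham organoids at day 90, from a mean of 5.20 to 1.03 CPM (−2.23, SE 0.55, adjusted p = 0.0436). In IR organoids at day 14 its means were 8.19 and 3.74 CPM (−1.25, SE 0.50, adjusted p = 0.235). The difference between IR and sham at day 90 was 2.05 (SE 0.68) on the log2 scale and was not called (adjusted p = 1). Id1, a BMP target that blocks differentiation factors, was at 104, 93.8 and 157 CPM and then at 138, 246 and 129 CPM (0.54, SE 0.44, adjusted p = 0.711). Id3, its relative, was at 135, 194 and 226 CPM and then at 179, 358 and 253 CPM (0.51, SE 0.50, adjusted p = 0.758). None of the 12 tested BMP and SMAD targets lay wholly apart. Against 7.91% of all genes, 4 of the 20 tested genes in the list of BMP ligands, receptors and antagonists lay wholly higher. They were the receptors Acvr2a (0.53, SE 0.20) and Bmpr2 (0.33, SE 0.15), the signal carrier Smad5 (0.15, SE 0.13) and Gdf15. Gdf15 is the stress cytokine already counted among the p53 targets.

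Basal keratins varied as much within a passage as between passages. Krt5 was at 1145, 1193 and 415 CPM in passage 1 and at 1836, 392 and 483 CPM in passage 2 (−0.02, SE 0.43, adjusted p = 0.993). Krt14 was at 2258, 2622 and 1341 CPM and then at 2832, 868 and 1396 CPM (−0.29, SE 0.33, adjusted p = 0.799). In both, passage 2 replicate 1 was the highest of all 6 libraries. Without it Krt5 was at −1.06 (adjusted p = 0.201) and Krt14 at −0.87 (adjusted p = 0.232). Trp63, the basal master regulator, lay wholly higher instead, at 37.6, 39.7 and 27.8 CPM and then at 60.7, 59.7 and 43 CPM (0.63, SE 0.27, adjusted p = 0.421). The 26 basal and hemidesmosome genes had a median of 0.03, with 2 wholly higher and 2 wholly lower.

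None of the squamous, progenitor or YAP genes was called by edgeR as fitted. Of 36 tested squamous and cornified envelope genes, 6 lay wholly lower and 1 wholly higher, with a median of −0.42. That median was −0.66 without passage 2 replicate 1 and −0.17 with the Gm42418 share as a covariate. For the same list it was 0.57 in sham organoids at day 90, where 3 members rose. In IR organoids at day 14 it was −0.55, and 1 member fell. Krt16, a keratin of stressed epidermis, was at 10.3, 33 and 18.8 CPM and then at 5.06, 3.34 and 5.68 CPM, while Sprr1b, a cross-linked envelope protein, was at 36.1, 35.7 and 44.5 CPM and then at 72.6, 129 and 59.6 CPM. Among progenitor markers, Cd44, a hyaluronan receptor, was at 562, 673 and 655 CPM and then at 413, 395 and 401 CPM (−0.64, SE 0.26, adjusted p = 0.379). Aldh1a3, a retinaldehyde dehydrogenase, was at 51, 68.7 and 102 CPM and then at 47, 38 and 40.6 CPM (−0.80, SE 0.35, adjusted p = 0.437). Of 29 progenitor genes 3 lay wholly lower and 1 wholly higher, which is near the background share. Of 35 YAP targets and regeneration genes 7 lay wholly lower and 1 wholly higher, with a median of −0.04. They included Areg, an EGF-family ligand, at 91.8, 93.2 and 79.3 CPM and then at 72.6, 28.4 and 40.6 CPM, and Edn1, the vessel-constricting peptide endothelin, at 33, 38.3 and 37.6 CPM and then at 9.23, 21.3 and 31.2 CPM. The matricellular YAP targets Ccn1 and Ccn2 overlapped.

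Matrix and Wnt genes gave single members rather than a shared direction. Timp1, a protease inhibitor, was at 30.9, 31.7 and 18.1 CPM in passage 1 and at 13.1, 6.27 and 16.2 CPM in passage 2 (−1.18, SE 0.38, adjusted p = 0.291). Npnt, the matrix protein nephronectin, was at 43.3, 52.9 and 102 CPM and then at 31, 21.3 and 27.2 CPM (−1.30, SE 0.46, adjusted p = 0.337). Among the 47 genes of TGF-beta signalling and matrix, 6 lay wholly lower and 2 wholly higher, against 6.92% and 7.91% of all genes. Of 25 Wnt genes 5 lay wholly lower, among them Znrf3, which removes Wnt receptors (−1.50, SE 0.43), the secreted Dkk3 (−0.68, SE 0.20) and the co-receptor Lrp5 (−0.88, SE 0.31). The 4 wholly higher Wnt genes included Wls and Porcn, which release Wnt ligands (0.36, SE 0.13, and 0.66, SE 0.30), and the feedback target Axin2 (0.48, SE 0.45).

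**Figure D4:**
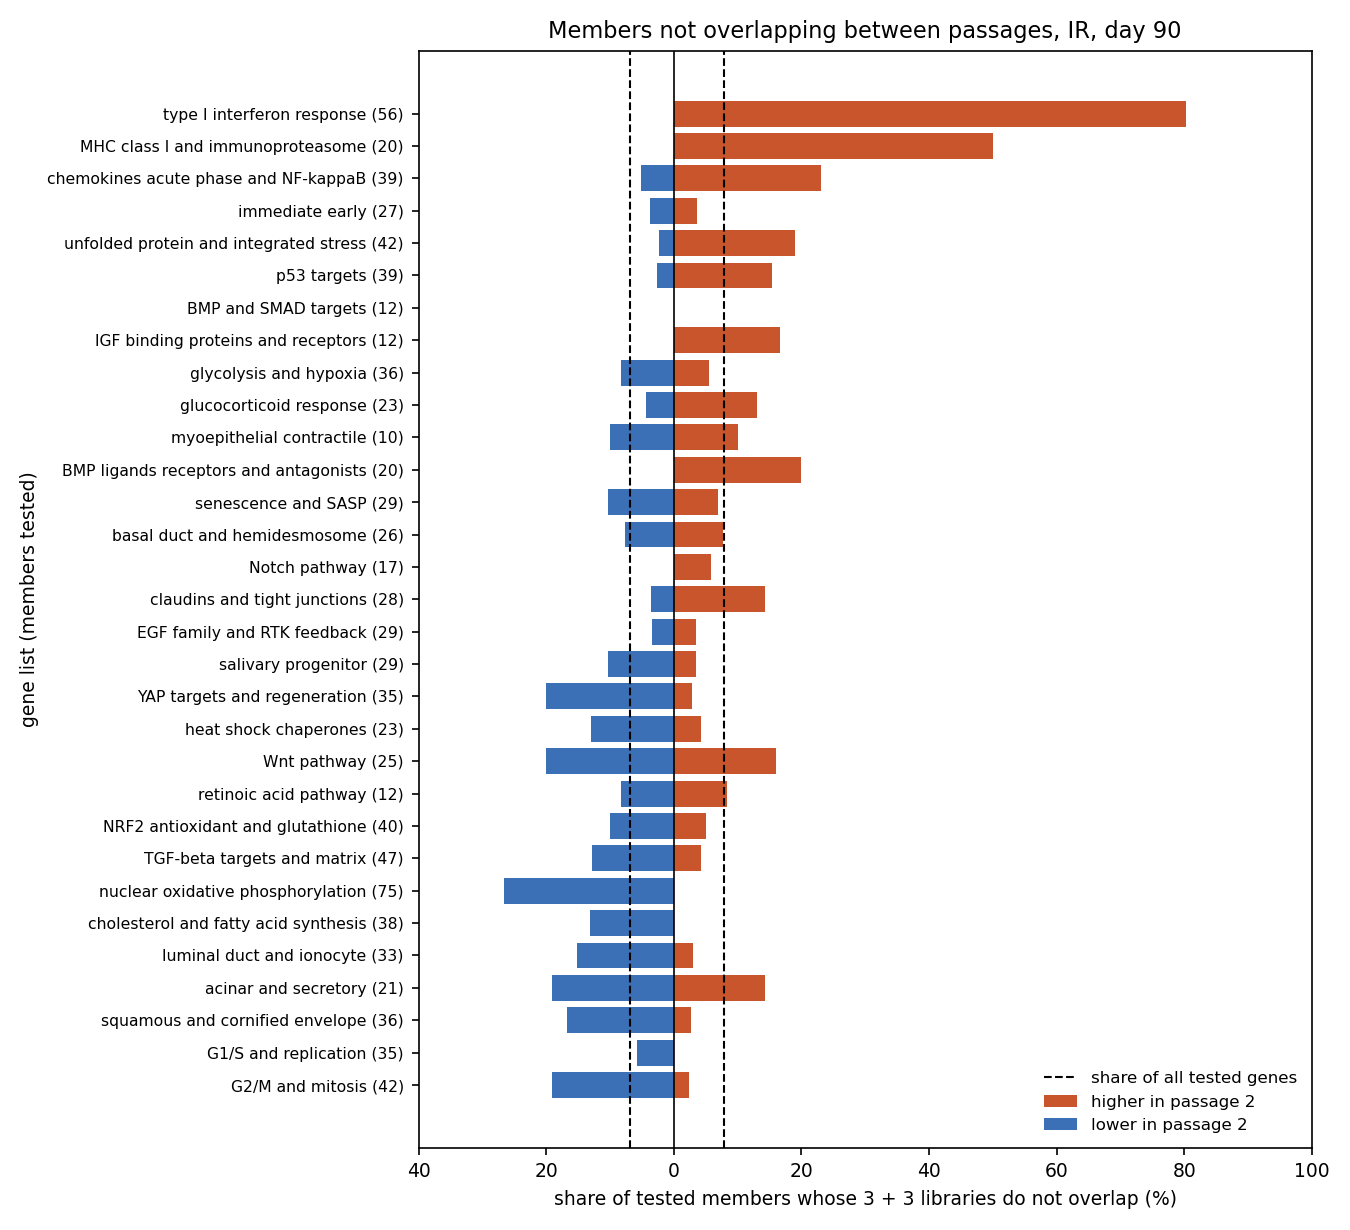
Share of the tested members of each gene list (vertical axis, number tested in brackets) whose 3 passage 2 libraries lay wholly above (orange, right) or wholly below (blue, left) the 3 passage 1 libraries, in percent; dashed lines mark 7.91% and 6.92% of all tested genes. Lists are ordered by median log2 fold change, from interferon at 2.40 to G2/M at −0.98, and the interferon bar stands for 45 of 56 members.

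The remaining pathway lists had medians between −0.28 and 0.37. Cholesterol and fatty acid synthesis was at the lower end, with 33 of 38 members below 0, 5 wholly lower and 0 wholly higher, among them Fdft1, the first committed enzyme of sterol synthesis (−0.69, SE 0.26), and Acly, which supplies acetyl-CoA (−0.58, SE 0.28). Immediate early genes were at the upper end, with 22 of 27 above 0, but 1 wholly higher, Jund, and 1 wholly lower, Nr4a2. In passage 2, replicate 1 was the lowest of its group for 26 of these 27 genes. Among 40 NRF2 and glutathione genes 4 lay wholly lower, the thioredoxin Txn1 among them (478, 489 and 487 CPM and then 368, 381 and 367 CPM), and 2 wholly higher. Of 23 glucocorticoid response genes, which bear on the dexamethasone in the medium, Tsc22d3 was higher (0.74, SE 0.20) and Fkbp5 lower (−0.96, SE 0.35). Of 23 heat shock chaperones Hspb8 was higher (0.90, SE 0.23) and the collagen chaperone Serpinh1 lower (−0.83, SE 0.26), each without overlap. Irs1, the insulin receptor substrate, was at 24.7, 29.1 and 27.1 CPM and then at 44.3, 56.4 and 57.6 CPM (0.97, SE 0.27) in the IGF list of 12. The lists of Notch, retinoic acid, myoepithelial, claudin and EGF-family genes had 1 to 4 members wholly higher and 0 or 1 wholly lower.

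Genes that the passage changed in other organoids of the series mostly took the same direction here. In sham organoids at day 90, 47 genes rose (0.445% of those tested) and 97 fell (0.918%) from passage 1 to passage 2. In the IR organoids of day 90, 45 of these 47 and 88 of these 97 had the same sign. Their median log2 fold change was 1.53 there and 0.78 here for the higher genes, and −1.68 there and −0.48 here for the lower ones. Of the 47, 28 (59.6%) lay wholly higher here, against 7.91% of all tested genes. Of the 97, 35 (36.1%) lay wholly lower, against 6.92%. In IR organoids at day 14, 42 genes rose (0.398%) and 104 fell (0.985%), and 41 and 95 had the same sign at day 90, with medians of 1.70 there and 0.52 here and of −1.48 there and −0.42 here. The 3 comparisons share no libraries, but 1 fit over all 24 libraries gave them a common estimate of the spread. The calls there are therefore not independent of the spread within the groups here. Genes picked for passing a test also have inflated values in the comparison that picked them. A smaller value here is thus not by itself a smaller effect.

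Both other comparisons called 38 genes in common, 6 higher and 32 lower, and all 38 had the same sign here. All 6 higher genes lay wholly higher here, with a median of 1.51. They were Saa1, Hif1a, Chil1, the glutamate transporter Slc1a1 (2.06, 1.98 and 0.696 CPM and then 5.66, 6.68 and 9.33 CPM), the glycerol kinase Gk (0.84, SE 0.23) and the predicted gene Gm26917 (0.82, SE 0.23). Of the 32 lower genes 17 lay wholly lower here, with a median over the 32 of −0.66. Krt8, Krt18, Krt7, Mucl2, Car6, Zdhhc2, Homer2 and Edn1 belong to them. Mboat1, a lysophospholipid acyltransferase (−0.69, SE 0.17), Nectin3, an adhesion molecule (−1.06, SE 0.33), and Piezo2, a stretch-gated channel (−1.93, SE 0.72), do so too. Krt7, Krt8, Krt18, Mucl2 and Car6 thus stood lower at passage 2 in all 3 settings, with the values for IR organoids at day 90 not called by edgeR. DESeq2 called Krt8, Mucl2 and Car6 of these 5.

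Other genes of the 32 had values nearer to level here than in both other comparisons, and Atp1b1, Clu and Thbs1 were close to level. Fn1, the matrix protein fibronectin, was at 1377, 1960 and 3215 CPM in passage 1 and at 625, 1681 and 2162 CPM in passage 2 (−0.55, SE 0.45), while in sham organoids at day 90 it fell from 911 to 82.6 CPM (−3.46, SE 0.50, adjusted p = 0.000824). In IR organoids at day 14 it fell from 1529 to 237 CPM (−2.70, SE 0.48, adjusted p = 0.00981). The difference between IR and sham at day 90 was 2.91 (SE 0.66, adjusted p = 0.315). Atp1b1, the beta subunit of the sodium pump, was at −0.06 (SE 0.28) here and at −1.91 in sham organoids, a difference of 1.85 (SE 0.40, adjusted p = 0.302). Clu, the secreted chaperone clusterin, was at −0.01 (SE 0.37) here and at −1.71 there, a difference of 1.70 (SE 0.53, adjusted p = 0.982). Thbs1, the matrix protein thrombospondin, was at −0.17 (SE 0.28) here and at −1.35 there. None of these differences was called in this fit. That of Atp1b1 was called when the share of Gm42418 entered as a covariate (adjusted p = 0.0419) and without passage 2 IR replicate 1 (adjusted p = 0.00692), and not with DESeq2 (adjusted p = 0.112). In Fn1, Thbs1, Atp1b1 and Clu alike, passage 2 replicate 1 was the lowest of the 6 libraries.

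**Figure D5:**
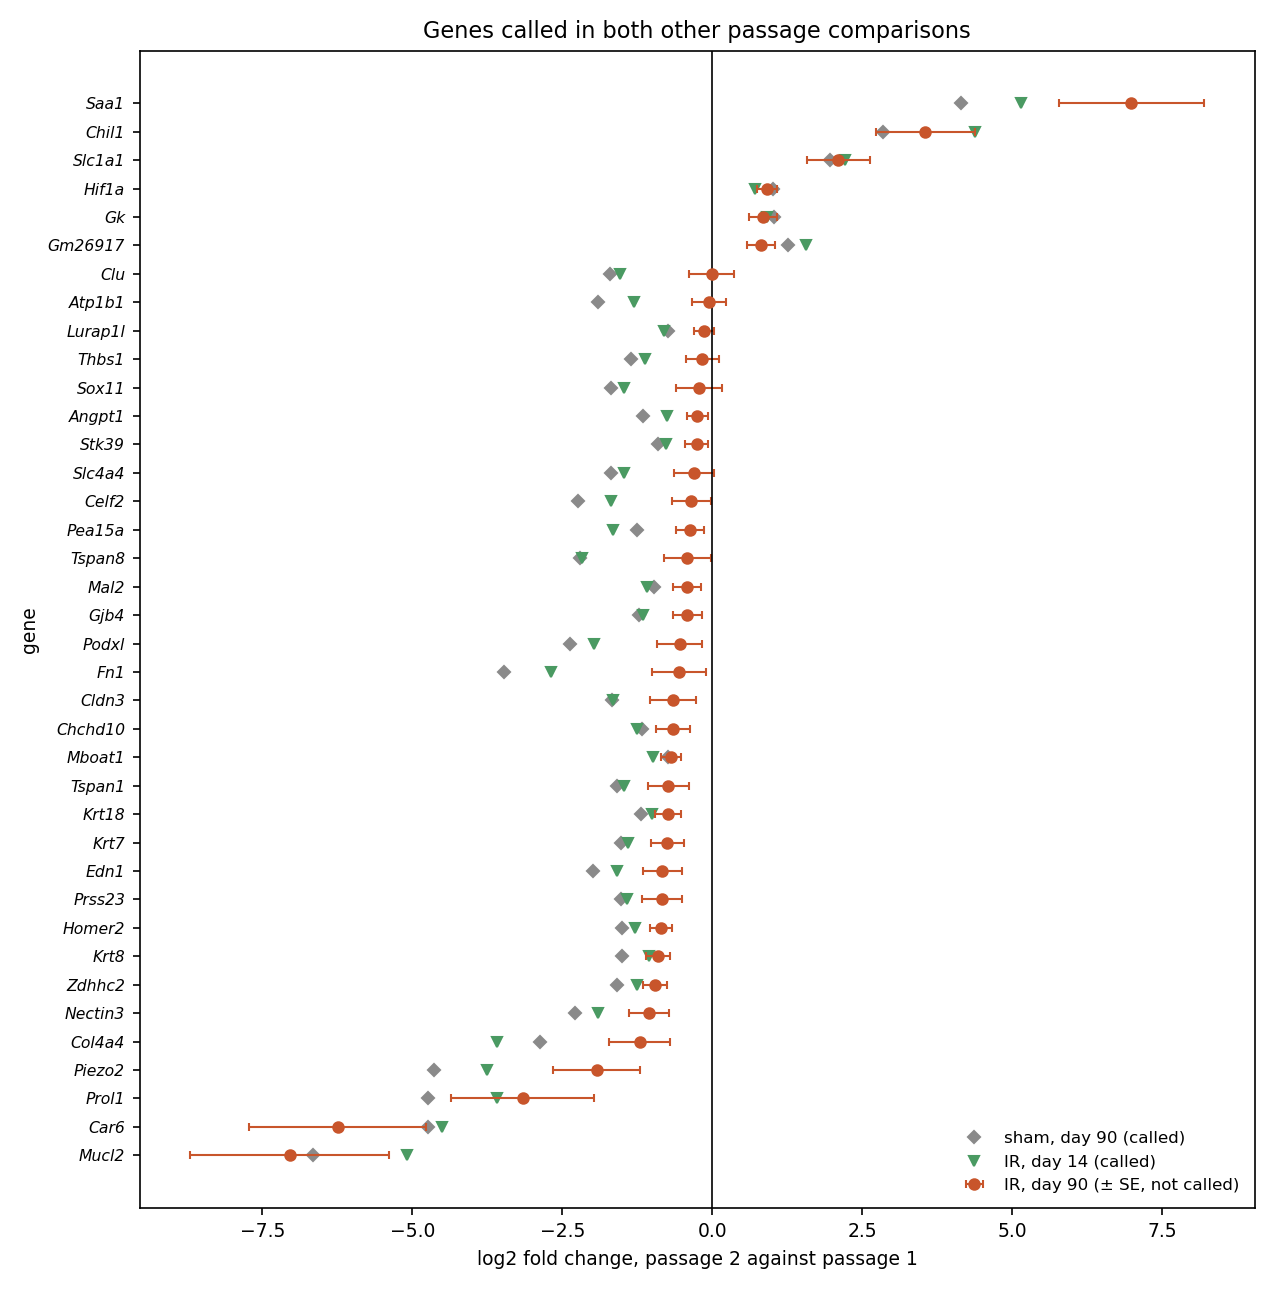
Log2 fold change of passage 2 against passage 1 (horizontal axis) for the 38 genes (vertical axis) called in both sham organoids at day 90 (grey diamonds) and IR organoids at day 14 (green triangles), with the value in IR organoids at day 90 (orange, ± SE). All 38 orange points have the sign of the other 2, from Saa1 at 6.98 to Mucl2 at −7.04, and Clu, Atp1b1 and Thbs1 lie near 0; the values of Mucl2 and Car6, which had no count in passage 2, are fitted and are not bounds.

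The edgeR tests of the differences themselves called nothing. For IR minus sham at day 90, 0 of 10563 genes (0%) were called, 407 (3.85%) had an unadjusted p under 0.05, and DESeq2 called 1. For day 90 minus day 14 in IR organoids, 0 genes were called, 721 (6.83%) had an unadjusted p under 0.05, and DESeq2 called 0. Gpx3, a secreted glutathione peroxidase, had the smallest p of the first test. It was at 7.73, 24.5 and 10.4 CPM in passage 1 and at 7.14, 113 and 106 CPM in passage 2, while in sham organoids it fell from a mean of 22.2 to 1.41 CPM, a difference of 6.38 (SE 1.21, adjusted p = 0.288). The difference of Gpx3 was called by DESeq2 (adjusted p = 0.0445). Passage 2 replicates 2 and 3 were the high libraries and replicate 1 lay just below the lowest library of passage 1. Without replicate 1 Gpx3 was called over the passage (2.97, adjusted p = 0.0298). Dync1i1, a dynein chain, Klrb1f, a lectin-like receptor, Nox4, an NADPH oxidase, and Ccn4, a matricellular protein, followed with differences of 4.25 (SE 0.86), 3.71 (SE 0.80), 3.39 (SE 0.74) and 4.08 (SE 0.90), each with adjusted p = 0.302.

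In the other direction, Serpinb1a, an inhibitor of neutrophil proteases, was at 8.77, 3.97 and 14.6 CPM in passage 1 and at 2.38, 0.836 and 2.84 CPM in passage 2, a difference from sham of −2.97 (SE 0.76, adjusted p = 0.568). Mrps5 (−0.73, SE 0.21), Ptpn3 (−1.14, SE 0.33), Pitpnm3 (−2.19, SE 0.67), Prl2c2 (−3.12, SE 0.97) and Snhg20 (−1.72, SE 0.54) had adjusted p of 0.903 to 0.982, and Prl2c2 has near-identical copies. Against day 14, Srxn1, which repairs oxidised peroxiredoxins, was at 22.2, 33.7 and 56.4 CPM and then at 32.4, 39.7 and 46.2 CPM here and fell from 103 to 23.4 CPM at day 14, a difference of 2.20 (SE 0.45, adjusted p = 0.642). Creg1 (1.05, SE 0.25), the calcium channel Orai1 (1.97, SE 0.47), Tmem14a (2.50, SE 0.61), Pea15a (1.29, SE 0.33) and Zfp763 (2.23, SE 0.58) had the same adjusted p. So did, with negative differences, Rnf150 (−2.07, SE 0.46), the glucose transporter Slc2a4 (−2.48, SE 0.68), Atp5e (−0.79, SE 0.22), Net1 (−0.74, SE 0.21), Ufsp2 (−0.97, SE 0.29) and Cep85 (−1.20, SE 0.35).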

How the data were processed

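Each library's file, as the authors deposited it, holds raw counts of reads on genes, from QuantSeq 3' libraries per the labels' protocols. The submitters' processing notes name bcl2fastq and GRCm39. No source used here gives the aligner, counter, annotation or strand setting, so overlapping genes and near-identical copies may share reads. The 5 lines that name no gene were dropped (no-feature reads 12.8% to 21.8% of a library). Symbols came from a reference by identifier (47224 of 47643 matched). Counts were tested with edgeR 4.0.16 (quasi-likelihood, TMM, filterByExpr on 8 groups, 10563 genes, 1 mean per group over 24 libraries) in R 4.3.3, with two-sided Benjamini-Hochberg adjusted p-values called at 0.05; the SE is the absolute log2 fold change over the square root of F. The scripts were tested on simulated data. Replicate pairs differed beyond sampling noise (chi-square per degree of freedom 2.73 to 26.7). Named genes were 10 fixed ones and, in each direction without a call, 6 taken by smallest p; list members and other genes were named after their values were seen. A result of 1 of these genes is not reported here. The libraries, the 37 lists and the comparisons were chosen with earlier results of these data known. Alternatives were DESeq2 1.42.0, median-of-ratios or total-count scaling, no filter or 5 CPM in 3 libraries, the compared groups alone, replicate blocks, ribosomal genes left out, the Gm42418 share as a covariate, and each library left out.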

Additional observations from a re-analysis of the deposited data

How the results depend on the processing

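For passage 2 against passage 1 in IR organoids at day 90, the count of called genes was 0 and stayed at 0 with median-of-ratios factors, the stricter filter or the ribosomal genes left out. It was 38 with DESeq2 (27 higher, 11 lower), 1 with total counts, 369 with no filter on low counts (246 and 123, among 22785 genes), 9 with the compared groups alone, 1 with the Gm42418 share as a covariate, and 0 to 33 with each library left out, the 33 without passage 2 replicate 1. For IR minus sham the count was 0, with 1 in DESeq2, 95 with no filter, 1 with the covariate and 0 to 9 with a library left out, the 9 without passage 2 IR replicate 1. For day 90 minus day 14 it was 0, with 128 with no filter and 0 to 1 with a library left out. The cause was not tested. Saa1 was called in 7 of 16 settings, Fbxo32 in 6, Klk1 in 5, and Hif1a, Chil1 and Igf2bp2 in 4. No named gene reversed a call. Of the 38 genes called in both other passage comparisons all kept the sign here, as did 54 of 55 with DESeq2, 32 of 34 with total counts, 40 of 44 with the covariate, 261 of 290 with no filter, 41 of 46 without passage 1 replicate 3 and 44 of 57 without passage 2 replicate 1. Of list medians 508 moved by less than the spread between replicates and 36 by more. Without passage 2 replicate 1 the median of BMP and SMAD targets went from 0.17 to 0.34. That of the IGF list went from 0.13 to 0.39 and that of progenitor genes from −0.03 to −0.24. The YAP median then changed sign, from −0.04 to 0.09, as did the basal one, from 0.03 to −0.21. In the other passage comparisons the count of called genes ran from 26 to 704 in sham organoids at day 90 (144 as fitted) and from 10 to 697 in IR organoids at day 14 (146).

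Replicate numbers in the titles differ from those in the file names, and no label says whether either marks an animal or culture, so the samples were not treated as paired. The correlation of deviations from the group means was 0.39, −0.08 and 0.15 for replicates 1, 2 and 3 by title, and 0.09 and 0.36 for the 2 pairs that share a file number. With the replicate number as a block, the passage comparison had 10 calls by title and 14 by file name, IR minus sham 6 by title and 0 by file name, and day 90 minus day 14 had 2 by title and 0 by file name. The title block called Klk1 and Mucl2 over the passage and the difference of Atp1b1 and of Gpx3 between IR and sham. The file-name block called Klk1, and with it the G1/S median was −0.29 in place of −0.56. In IR organoids at day 90 the file-name block rests on the 2 pairs that share a number. Passage 1 replicate 1 and passage 2 replicate 3 have no partner there and do not enter its fold changes. Depth limits genes of a few CPM, which rest on few reads: Mucl2 had 37 reads and Car6 21 over passage 1.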
